A study of Mus musculus with 12 samples.

Results

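Steroidogenic genes of Leydig cells were followed as a set of 10 genes: Star, Cyp11a1, Cyp17a1, Hsd3b1, Hsd17b3, Hsd17b11, Lhcgr, Insl3, Srd5a1 and Shbg. They were taken by gene symbol and by no threshold on their values, though earlier results of these data were known when the set was chosen. All 10 were on the arrays, as 13 of 41174 probes and 10 of 15972 gene symbols, with a pair of probes each for Star, Cyp11a1 and Hsd17b11. The cells were TM3, a line set up from testes of young Balb/c mice and used as a model of Leydig cells. Cultures received methoxyacetic acid (MAA), the active metabolite of the solvent ethylene glycol monomethyl ether, at 1 mM or 5 mM for 3, 8 or 24 h, and control cultures received medium alone for the same time. Each of the 12 two-colour arrays set the RNA of MAA-treated cells against that of control cells, with 2 arrays for each of the 6 conditions. The 2 arrays of a condition held separate pools of 3 cultures, with the dyes exchanged. All cultures grew in medium with horse and fetal bovine serum, and no gonadotropin is named among the additions. Before pooling, the study had checked the MAA response of each RNA by qPCR of Cyp17a1, Shbg and Igfbp3, so these arrays were not the first look at Cyp17a1 and Shbg.

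Leydig cells make testosterone from cholesterol. The StAR protein, encoded by Star, brings cholesterol to the inner mitochondrial membrane, where Cyp11a1 cleaves its side chain to give pregnenolone, and Hsd3b1, Cyp17a1 and Hsd17b3 carry the product on to testosterone. Luteinizing hormone acts through the receptor Lhcgr and cyclic AMP to raise this output, Insl3 is a peptide hormone of Leydig cells that guides testis descent, and Shbg is a binding protein for androgens and estrogens.

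Shbg, Insl3, Hsd17b11 and Cyp11a1 were called in at least 1 condition where a channel was well above background on both arrays. For Cyp11a1 only the treated channel was. The share of all probes called in at least 1 condition is not given here, so this count is no result about the set. Shbg rose at 5 mM, 3.77-fold at 8 h and 4.73-fold at 24 h, and at 1 mM, 2.97-fold at 8 h and 2.66-fold at 24 h. Insl3 was 2.16-fold lower after 24 h of 5 mM MAA, and Hsd17b11, a 17beta-hydroxysteroid dehydrogenase found on lipid droplets, was 2.13-fold lower after 8 h. Cyp11a1 came above background only in cells given 5 mM MAA for 24 h, where it was at least 2.17-fold higher than in control cells. A gene was called when limma gave p under 0.005 and a fold over 2 at 5 mM or over 1.5 at 1 mM, and each gene was counted by its probe with the highest mean signal.

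Of the 10 genes, 1 was called after 3 h of 5 mM MAA, against 3.76% of all probes, 2 after 8 h, against 5.55%, and 3 after 24 h, against 5.62%. At 1 mM the count was 1 gene at each time, against 1.95%, 2.37% and 4.68% of all probes at 3, 8 and 24 h. Both calls at 3 h were Shbg, in arrays where neither channel was well above background. Without a fold threshold, 4 of the 10 genes had a limma adjusted p under 0.05 at each time of 5 mM, 2 of them higher and 2 lower with MAA. The same held for 24.0%, 30.4% and 30.4% of all probes at 3, 8 and 24 h. At 1 mM this was 1 gene at each time, Shbg, against 4.62%, 5.53% and 11.3% of all probes. The median log2 ratio of the 10 genes was -0.28, 0.09 and 0.16 at 3, 8 and 24 h of 5 mM, where that of all probes was -0.10, -0.04 and 0.03. At 1 mM the medians were 0.02, 0.01 and -0.09, against 0.02, 0.02 and -0.07 for all probes. These medians include genes below background. Among the 4, 5 and 6 genes well above background at 3, 8 and 24 h of 5 mM, the median was -0.34, 0.17 and 0.01. For all probes well above background it was -0.01, -0.01 and -0.06. With 2 genes higher and 2 lower at each time of 5 mM, the set as a whole had no common direction.

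**Figure D1:**
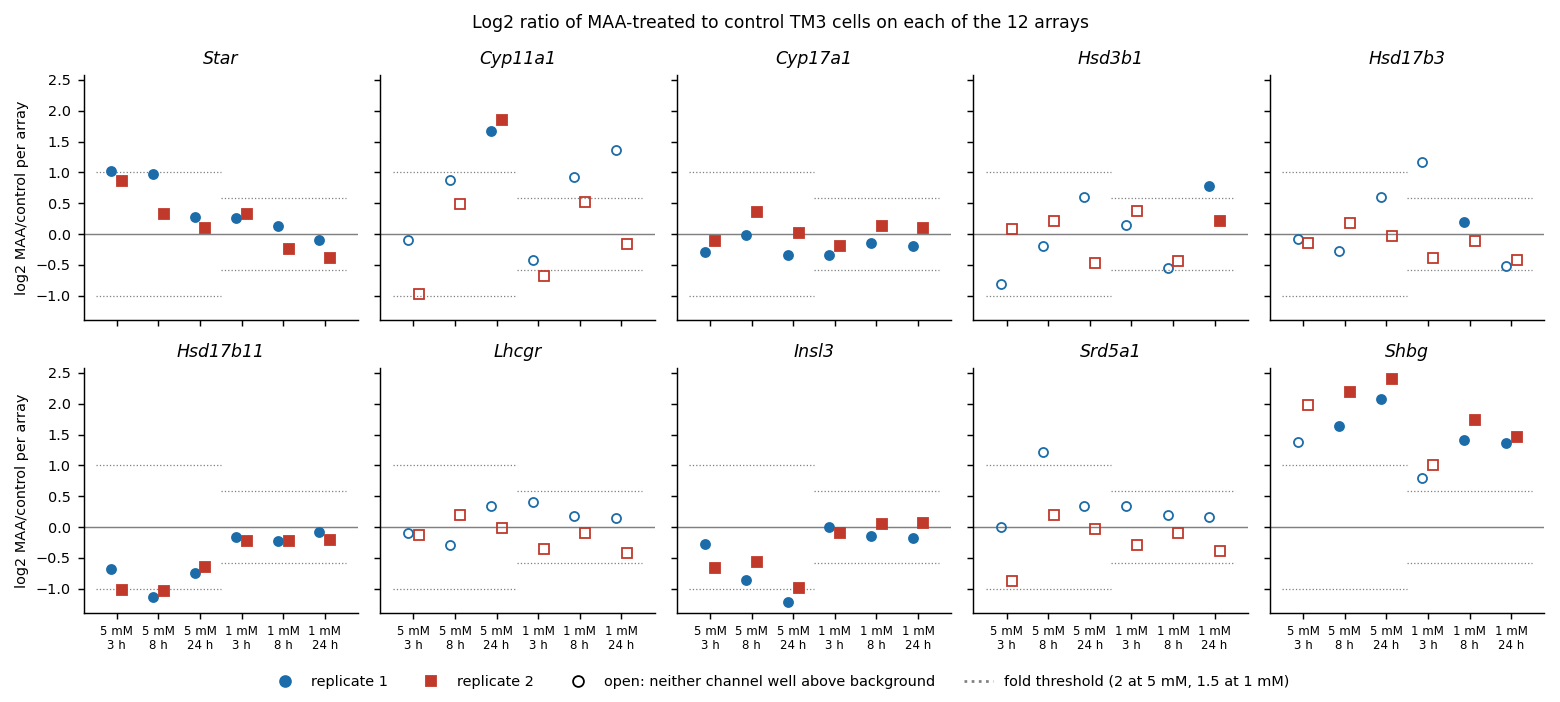
Log2 ratio of MAA-treated to control TM3 cells for each of the 10 genes (probe with the highest mean signal) on each of the 12 arrays, by concentration and time. Circles are replicate 1 and squares replicate 2, open symbols mark arrays where neither channel was well above background, and dotted lines mark the fold thresholds of 2 at 5 mM and 1.5 at 1 mM. Shbg lies above 0 on all 12 arrays and Insl3 below 0 on the 6 arrays of 5 mM, while Cyp17a1 stays close to 0.

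The stretches of DNA just before the start of transcription are shown for the 4 called genes named above, so that their different composition can be seen. Each is the 250 bases before an annotated start in RefSeq, build GRCm38.p6, written 5′ to 3′ on the strand of the gene. Capitals mark a GATA-type match (AGATAA) in Shbg, a GC box (GGGCGG) in Insl3, a GC box read on the other strand in Hsd17b11, and a nuclear receptor core motif (AGGTCA) in Cyp11a1.
Shbg, chr11:69617906-69618155, minus strand: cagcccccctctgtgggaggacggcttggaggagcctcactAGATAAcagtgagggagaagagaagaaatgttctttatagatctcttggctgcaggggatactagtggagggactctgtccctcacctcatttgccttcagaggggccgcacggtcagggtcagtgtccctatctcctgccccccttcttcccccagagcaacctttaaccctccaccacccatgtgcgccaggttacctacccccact
Insl3, chr8:71689002-71689251, plus strand: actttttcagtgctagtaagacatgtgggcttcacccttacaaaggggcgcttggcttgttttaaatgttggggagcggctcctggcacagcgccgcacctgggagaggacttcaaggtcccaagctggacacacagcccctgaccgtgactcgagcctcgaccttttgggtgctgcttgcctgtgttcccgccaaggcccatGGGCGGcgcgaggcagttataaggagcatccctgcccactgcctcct
Hsd17b11, chr5:104021797-104022046, minus strand: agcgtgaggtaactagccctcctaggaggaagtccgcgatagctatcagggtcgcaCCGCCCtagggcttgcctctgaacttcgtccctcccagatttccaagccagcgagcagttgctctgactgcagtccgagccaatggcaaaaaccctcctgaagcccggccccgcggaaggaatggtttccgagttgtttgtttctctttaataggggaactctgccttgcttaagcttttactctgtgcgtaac
Cyp11a1, chr9:58014702-58014951, plus strand: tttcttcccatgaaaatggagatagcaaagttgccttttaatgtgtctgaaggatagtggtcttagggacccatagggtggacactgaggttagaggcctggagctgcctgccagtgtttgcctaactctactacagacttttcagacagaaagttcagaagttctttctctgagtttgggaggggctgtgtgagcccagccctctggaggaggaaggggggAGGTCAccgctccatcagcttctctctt

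The match lay 209 bases before the start in Shbg, 47 in Insl3, 194 in Hsd17b11 and 28 in Cyp11a1. The Insl3 window also held the letters TATAA, 31 and 30 bases before the start counting both strands, and the Shbg window held them 175 bases before. On both strands, AGATAA occurs in 9.99% of the 32851 promoters of the same length in the table, GGGCGG in 32.7%, AGGTCA in 14.0% and TATAA in 22.8%. The other motifs searched were CAAGGTCA (an SF-1 type site that contains AGGTCA), TGACGTCA (a cAMP response element) and its part TGACG, GCGNGGGCG (an EGR site) and CCAAT. They occur in 1.33%, 1.55%, 17.8%, 4.7% and 33.8% of all promoters. Among the windows printed above, that of Hsd17b11 held CCAAT, 115 bases before the start. Of the 10 genes, 8 had promoters in the table, 9 promoters in all, and neither CAAGGTCA, TGACGTCA nor GCGNGGGCG was found in any of the 9. Only these exact letters were searched, so sites with other letters were missed. The Insl3 window, for example, holds CAAGGTCC, which differs from CAAGGTCA in its last letter. Cyp11a1 has a second annotated start, at the beginning of the gene, whose window chr9:57997774-57998023 on the plus strand held TGACG and CCAAT but none of the 3 motifs in capitals. Star and Cyp17a1 were not among the promoters. In the same annotation the genes span chr11:69610282-69618026 (Shbg), chr8:71689252-71690577 (Insl3), chr5:103989765-104021796 (Hsd17b11) and chr9:57998024-58027031 (Cyp11a1), so the windows of Shbg and of this Cyp11a1 start overlap the gene itself.

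Shbg showed the clearest response. Signals are given here after normalization between channels and arrays, in arbitrary intensity units that compare conditions for 1 probe but not 1 probe with another. After 24 h at 5 mM the signal was 139.9 and 145.0 in MAA-treated cells, against 33.2 and 27.3 in the control cells of the same arrays. After 8 h it was 79.5 and 80.3 with MAA, against 25.6 and 17.5. At 1 mM it was 59.1 on both arrays with MAA at 24 h, against 22.9 and 21.5, and 32.5 and 32.0 at 8 h, against 12.2 and 9.63, the last of which was not well above background. In each of these 4 conditions every treated channel was brighter than every control channel. How many of all probes separate in this way is not given, for Shbg or for the genes below. At 3 h no channel of Shbg was well above background at either concentration, with 10.8 and 16.7 in treated cells against 4.15 and 4.27 at 5 mM, and 8.28 and 6.82 against 4.76 and 3.39 at 1 mM.

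The mean log2 ratio of Shbg at 5 mM was 1.92 at 8 h and 2.24 at 24 h (SE 0.18, n = 2 arrays each; limma adjusted p = 0.000201 and 0.000121). At 1 mM it was 1.57 at 8 h and 1.41 at 24 h (SE 0.18, n = 2 arrays each; limma adjusted p = 0.00561 and 0.00396). With no term for dye orientation, the response at 5 mM was not shown to differ from that at 1 mM: the difference of log2 ratios was 0.34 at 8 h (95% interval -0.26 to 0.95; adjusted p = 0.546) and 0.83 at 24 h (0.22 to 1.43; adjusted p = 0.103). Within the orientation with MAA in green these differences were 0.23 and 0.71, and with MAA in red 0.46 and 0.95. The array with MAA in red gave the higher ratio in 6 of 6 conditions, by 0.10 to 0.59, so the value rests on averaging both dye orientations. With a stronger background correction (normexp with an offset of 50, then loess) the log2 ratio at 24 h of 5 mM was 1.25, still called, while those at 8 h of 5 mM (0.88) and at 8 and 24 h of 1 mM (0.38 and 0.37) fell under the fold threshold.

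Insl3 was bright in all cells, and at 24 h of 5 mM its 2 treated channels, 294.0 and 303.1, lay well below the controls at 685.5 and 605.2. At 8 h they were 246.7 and 249.5, against 447.3 and 368.4. At 3 h they were 202.8 and 168.1, against 245.4 and 265.6. Treated and control channels of 5 mM therefore did not overlap at any time, with only 2 of each per time and no share of all probes to set beside it. The mean log2 ratio was -0.47, -0.71 and -1.11 at 3, 8 and 24 h (SE 0.12, n = 2 arrays each; limma adjusted p = 0.0299, 0.00368 and 0.000474), and only the last was past the fold threshold. Without replicate 2 at 3 h the ratio there was -0.28 (adjusted p = 0.359), and without replicate 1 at 8 h it was -0.56 (adjusted p = 0.0679). Without replicate 1 of 5 mM at 24 h that ratio was -0.997, just short of 2-fold, and the call was lost, as it was with normexp background correction (-0.90).

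At 1 mM Insl3 stayed near its control level. The treated channels were 258.7 and 259.3 at 3 h, 436.5 and 408.2 at 8 h, and 600.7 and 658.6 at 24 h. The control channels of those arrays were 260.0 and 278.7, 484.5 and 396.9, and 682.1 and 629.6. The mean log2 ratio was -0.06, -0.05 and -0.06 (SE 0.12, n = 2 arrays each), with a 95% interval of -0.35 to 0.23 at 24 h. The 2 concentrations differed at 24 h, by -1.05 in log2 ratio (SE 0.18; limma adjusted p = 0.0133), and the differences of -0.41 at 3 h and -0.66 at 8 h had adjusted p = 0.318 and 0.0589. Leaving out any 1 of the 4 arrays of 24 h ended that call, with differences from -0.93 to -1.17 and adjusted p from 0.0530 to 0.0935. Within the 1 slide that held both concentrations at 24 h, the difference was -1.04. At 5 mM the ratio was also lower at 24 h than at 3 h, by 0.64 in log2 (adjusted p = 0.0472), but the 2 slides that held both times gave -0.95 and -0.34, and leaving out an array ended that call for 11 of the 12 arrays, with adjusted p up to 0.219.

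Hsd17b11 was lower with 5 mM MAA at every time and past the fold threshold at 8 h. On its brighter probe the treated channels of 5 mM were 479.5 and 410.1 at 3 h, 397.3 and 438.4 at 8 h, and 627.0 and 598.6 at 24 h. The controls of the same arrays were 764.9 and 837.0, 872.5 and 901.5, and 1047 and 941.6. All 6 treated channels lay below all 6 control channels, again with no share of all probes to set beside it. The mean log2 ratio was -0.85, -1.09 and -0.70 at 3, 8 and 24 h (SE 0.09, n = 2 arrays each; limma adjusted p = 0.000444, 0.000102 and 0.000869), so that the 8 h ratio was past 2-fold. Without replicate 1 of 5 mM at 3 h the 3 h ratio was -1.03, which would be called, and with normexp background correction the 8 h ratio was -0.98, under the fold threshold.

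The lower concentration gave Hsd17b11 ratios of -0.20, -0.23 and -0.14 (SE 0.09), none of them past the test. Treated channels ran from 692.4 to 863.4 and controls from 775.5 to 968.1 across the 6 arrays of 1 mM, with the treated channel the lower one on 6 of 6. By the dimmer second probe, 5 mM and 1 mM differed by -0.41, -0.62 and -0.23 at 3, 8 and 24 h. None of these was past the test (limma adjusted p = 0.716, 0.326 and 0.715). By the brighter probe the 2 concentrations differed at each time, by -0.66, -0.86 and -0.55 in log2 ratio (SE 0.13, limma adjusted p = 0.0378, 0.00728 and 0.0378). These calls were close to the threshold: leaving out an array ended them for 11, 2 and 10 of the 12 arrays at 3, 8 and 24 h, with adjusted p up to 0.161, 0.0563 and 0.194. The dimmer second probe gave -0.69, -1.01 and -0.75 at 5 mM (SE 0.23), called at 8 h alone, and that call was lost on leaving out any of 6 of the 12 arrays, among them both arrays of that condition. Its 3 h ratio was -0.27 without replicate 1 at 3 h (adjusted p = 0.673) and -1.10 without replicate 2.

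Star, whose product limits the rate of steroid synthesis in response to hormone, was not called at any time, and its ratio at 5 mM was highest at 3 h by the brighter probe and at 8 h by the other. On its brighter probe the treated channels were 239.7 and 202.7 at 3 h, against 118.3 and 111.2. They were 137.2 and 118.9 at 8 h, against 70.0 and 95.4, and 120.6 and 111.3 at 24 h, against 99.1 and 104.1. The treated cells were the brighter ones on 6 of 6 arrays, with the widest gap at 3 h. The mean log2 ratio was 0.94, 0.64 and 0.19 (SE 0.16, n = 2 arrays each; limma adjusted p = 0.00442, 0.0192 and 0.480), under the 2-fold threshold at each time. At 8 h it was 0.32 without replicate 1 (adjusted p = 0.278) and 0.97 without replicate 2. It crossed that threshold at 3 h when each array was centred on its median (1.05), with the slide as a block (1.01) and without replicate 2 of that condition (1.02). The second probe gave 0.63, 0.67 and 0.30 (SE 0.10; adjusted p = 0.00310, 0.00170 and 0.0608), with 0.41 at 3 h without replicate 1 and 0.85 without replicate 2.

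At 1 mM the Star ratio was 0.30, -0.06 and -0.24 on the brighter probe and 0.03, 0.15 and 0.02 on the other. None passed the test. The concentrations differed by 0.65, 0.70 and 0.43 in log2 ratio (95% intervals 0.11 to 1.18, 0.17 to 1.24 and -0.10 to 0.97; adjusted p = 0.213, 0.107 and 0.340), so a difference was not shown. The Star ratio at 24 h of 5 mM was lower than at 3 h by 0.75, with adjusted p = 0.0675.

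Cyp11a1, the enzyme of the first committed step, was below background in nearly all channels. After 24 h of 5 mM MAA its first probe read 19.4 and 17.3 in treated cells, against 6.12 and 4.82, and its second probe read 15.1 and 17.8, against 1.94 and 3.73. These 2 arrays were the only ones of the 12 with a treated channel well above background for Cyp11a1, and no control channel was. Against the lowest signal well above background on the control side, Cyp11a1 was at least 2.17-fold higher by the first probe and at least 1.95-fold by the second. The limma adjusted p, 0.00654 and 0.000444, were those of log2 ratios of 1.75 and 2.61 from control signals below background. The lower bounds were not tested themselves. Leaving out either array of the condition ended the call of the first probe (adjusted p = 0.0579 without replicate 1 and 0.0779 without replicate 2), and the second probe kept its call. With normexp background correction the log2 ratios were 0.27 and 0.26, under the fold threshold. At 1 mM and 24 h the second probe was also past the test, but with both channels below background, at 6.77 and 9.21 against 3.13 and 3.12, so no fold is given.

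Cyp17a1, which makes androgens from pregnenolone and progesterone derivatives, was well above background in all 24 channels and close to its control level throughout. By qPCR the study found Cyp17a1 higher with MAA, a change that it too did not see on the arrays. Its treated channels ran from 54.4 to 85.7 and its control channels from 57.9 to 102.0. The 2 groups of channels overlapped across most of that range. The mean log2 ratio was -0.20, 0.17 and -0.16 at 3, 8 and 24 h of 5 mM, and -0.26, -0.01 and -0.04 at 1 mM (SE 0.14, n = 2 arrays each). In the fit with no term for dye orientation, the limma adjusted p ran from 0.404 to 0.973 over the 6 conditions. The widest limits of the 95% intervals there were -0.58 and 0.49. With the replicate number as a block, its response at 5 mM differed between times, as given below. The array with MAA in red gave the higher ratio in 6 of 6 conditions, by 0.14 to 0.38, which is as large as the ratios themselves.

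Of the remaining enzymes, Hsd3b1, which forms the 3-keto steroids, had treated channels well above background only after 24 h of 1 mM, at 9.83 and 12.7 against controls of 5.74 and 11.0 that were not. Its log2 ratio there was 0.49 (limma adjusted p = 0.369), and it was not called. Hsd17b3, which makes testosterone from androstenedione, was well above background on 1 array alone, replicate 1 of 1 mM at 8 h, at 19.8 with MAA and 17.3 in control cells, where the other 11 arrays read 2.06 to 5.60. Srd5a1, which reduces testosterone to dihydrotestosterone, and the receptor Lhcgr were not well above background in any channel. Lhcgr read 2.17 to 3.01 across the 24 channels and Srd5a1 2.32 to 6.79. For these 2 genes the arrays give no ratio that can be read.

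Insl3 and Shbg also differed between times in control cells. The control channels of each time were averaged by replicate number and compared with limma, a comparison added after the data had been seen. Insl3 in control cells ran from 245.4 to 278.7 at 3 h, from 368.4 to 484.5 at 8 h and from 605.2 to 685.5 at 24 h, with no overlap between times. It was 2.48-fold higher at 24 h than at 3 h (log2 1.31, SE 0.13; adjusted p = 0.00467) and 1.61-fold higher at 8 h than at 3 h (adjusted p = 0.0463). Set beside this, Insl3 in cells on 5 mM MAA was 168.1 to 202.8 at 3 h and 294.0 to 303.1 at 24 h, the latter just above the untreated range at 3 h. The 8 h difference rested on few arrays: leaving out replicate 2 of 5 mM at 3 h, replicate 1 of 5 mM at 8 h, replicate 2 of 1 mM at 8 h or replicate 1 of 1 mM at 24 h left Shbg as the sole gene past the test.

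Shbg in control cells was below background at 3 h, 9.63 to 25.6 at 8 h and 21.5 to 33.2 at 24 h. It was at least 1.81-fold higher at 24 h than at 3 h and at least 1.06-fold higher at 8 h. The limma adjusted p, 0.00251 and 0.0146, were those of log2 differences of 2.65 and 1.88 from 3 h signals below background. These lower bounds were not tested themselves. The second probe of Star was lower at 8 h and 24 h than at 3 h, by 0.76 and 0.59 in log2 (adjusted p = 0.0260 and 0.0206). Its first probe gave -0.42 and -0.17 (adjusted p = 0.149 and 0.475), in the same direction but not past the test. By their brightest probe, 2 of the 10 genes passed at 8 h versus 3 h, against 11.9% of all probes, and 2 at 24 h versus 3 h, against 28.8%, Insl3 and Shbg both times. From 8 to 24 h the count was 0, against 12.8% of all probes, with 4 genes at unadjusted p under 0.05 (Cyp11a1, Hsd3b1, Insl3 and Shbg). The labels do not say whether the arrays of 1 mM and 5 mM at a time share control cultures.

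**Figure D2:**
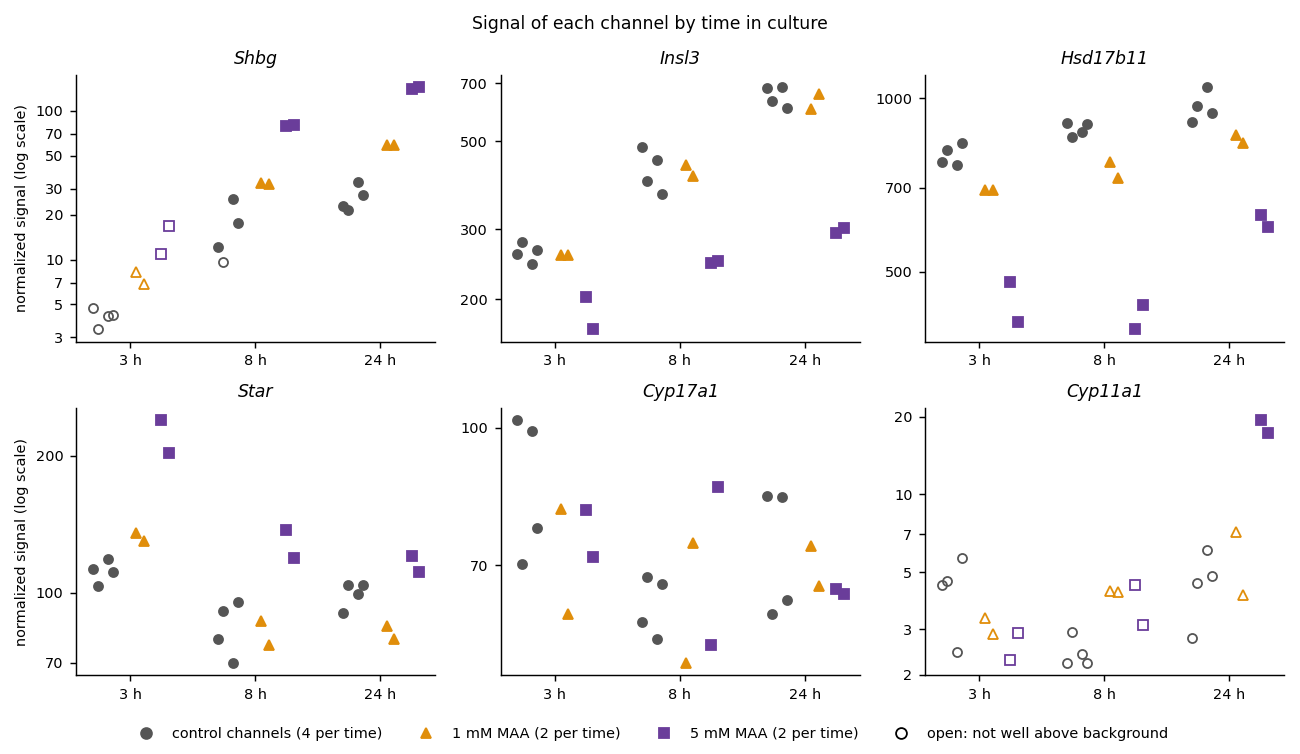
Normalized signal (log scale, arbitrary units) of each channel against time for 6 of the genes, by their probe with the highest mean signal. Grey circles are the 4 control channels of a time, orange triangles the 2 channels of 1 mM MAA and purple squares the 2 channels of 5 mM MAA, with open symbols not well above background. Insl3 climbs with time in control cells to between 605.2 and 685.5, and lies at 294.0 and 303.1 in cells on 5 mM for 24 h.

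Put together by concentration, with each gene read by its brightest probe, 1 of the 10 responses differed between 5 mM and 1 mM at 3 h. This was Hsd17b11, against 3.40% of all probes. At 8 h it was again 1, Hsd17b11, against 10.1%, and at 24 h 2, Hsd17b11 and Insl3, against 8.41%. Each was by limma adjusted p under 0.05. With the replicate number, which is the dye orientation, as a block, Shbg also passed at 3 h, Star and Insl3 at 8 h and Shbg at 24 h. Between times at 5 mM, 0 genes differed from 3 to 8 h (5.10% of all probes), with 2 at unadjusted p under 0.05, and 0 from 8 to 24 h (8.91%), with 1 at unadjusted p under 0.05. From 3 to 24 h, 2 genes differed (15.8% of all probes), Insl3 and Cyp11a1. With the block the counts were 2 (Cyp17a1 and Srd5a1) from 3 to 8 h, 1 (Cyp17a1) from 8 to 24 h, and 4 (Star, Cyp11a1, Insl3 and Shbg) from 3 to 24 h. Srd5a1 was not well above background in any channel, so its pass rests on no readable ratio. The same holds for Shbg wherever its 3 h ratios enter, since no channel of Shbg was well above background at 3 h. For Cyp11a1 the signals at 3 h were below background, so its difference of 2.29 (adjusted p = 0.0187) has no measured starting level, and it was not past the test without replicate 2 at 3 h or without either array at 24 h (adjusted p = 0.109, 0.0784 and 0.0967).

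**Figure D3:**
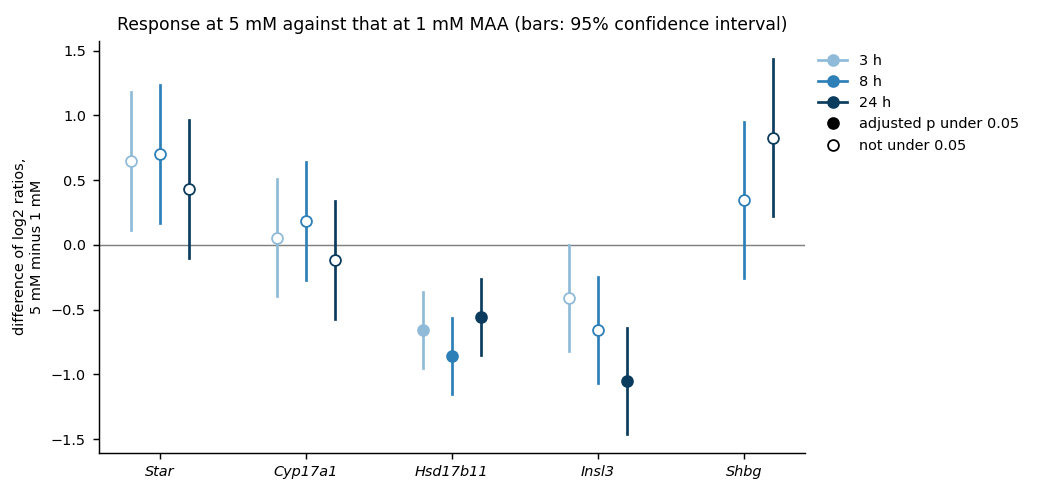
Difference between the log2 ratio at 5 mM and that at 1 mM (vertical axis, log2 units) for the 5 genes with measured signals, at 3, 8 and 24 h. Each gene is shown by its probe with the highest mean signal. Points are estimates, bars 95% confidence intervals, and filled points have an adjusted p under 0.05. The 4 filled points are Hsd17b11 at 3, 8 and 24 h and Insl3 at 24 h, and Shbg at 3 h is left out because its signals were below background.

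The log2 ratios of Shbg were followed over the 12 arrays by few other genes as closely as by Csrnp1 (Pearson r = 0.948), Ppm1j (0.939) and Gcnt2 (0.921), the 3 highest of 15029 probes measured on all 12 arrays. The points are arrays that share conditions, slides and dye orientation, so this is a description. At 3 h Shbg itself was not well above background in either channel at either concentration. Ppm1j was the closest of the 3 in size, its log2 ratio at 5 mM being 1.68 at 3 h, 2.10 at 8 h and 2.60 at 24 h, while those of Csrnp1 and Gcnt2 stayed between 0.32 and 0.60.

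Few genes of the wider steroid pathway were called. Of its 37 measured genes, 1 rose and 0 fell at each time of 5 mM. Among all probes 2.02%, 3.06% and 3.85% were called higher at 3, 8 and 24 h of 5 mM and 1.74%, 2.49% and 1.77% lower. At 1 mM it was 1.32%, 1.72% and 3.26% higher and 0.627%, 0.656% and 1.41% lower. Hsd17b1, which converts estrone to estradiol, rose 2.73-fold at 3 h and 2.45-fold at 8 h (limma adjusted p = 5.28e-05 and 5.24e-05). Akr1c18, which inactivates progesterone, rose 7.01-fold at 24 h, from a mean signal of 10.8 in control cells to 75.9 (adjusted p = 2.11e-05). At 1 mM the counts were 0, 1 and 0, and the 1 gene, Hsd11b2, named after its value was seen, was below background in both channels.

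The partners that pass electrons to the steroidogenic P450 enzymes differed among themselves. Por, which serves the microsomal enzymes such as Cyp17a1, reached a log2 ratio of 0.92 at 3 h, 0.90 at 8 h and 0.73 at 24 h with 5 mM (SE 0.11; adjusted p = 0.000683, 0.000539 and 0.00157), short of 2-fold. Fdx1 and Fdxr, which serve the mitochondrial enzymes such as Cyp11a1, had ratios between -0.10 and 0.16 at 5 mM, with adjusted p from 0.315 to 0.972. Tspo, a cholesterol-binding protein of the outer mitochondrial membrane, had ratios of -0.17, -0.15 and 0.26. Hsd3b6, the other Leydig cell form of 3beta-hydroxysteroid dehydrogenase, was not well above background in any channel.

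A few genes of the pathway below the LH receptor were called, at shares of the list to be read against the 2.02%, 3.06% and 3.85% of all probes called higher at 3, 8 and 24 h of 5 mM. The shares called lower were 1.74%, 2.49% and 1.77%. Of 23 measured genes, 2 rose and 0 fell at 3 h of 5 mM, 2 rose and 1 fell at 8 h, and 3 rose and 0 fell at 24 h. Akap12, a scaffold for protein kinase A, rose 2.12-, 3.30- and 4.74-fold at 3, 8 and 24 h (adjusted p = 0.000101, 1.39e-05 and 6.03e-06). Arrb2, a beta-arrestin that desensitizes receptors, rose 2.50-fold at 8 h and 3.23-fold at 24 h, and Prkar1b, a regulatory subunit of protein kinase A, 2.88-fold at 24 h. The adenylyl cyclases went opposite ways, with Adcy9 2.23-fold higher at 3 h and Adcy7 2.27-fold lower at 8 h. At 1 mM 0, 1 and 2 genes rose at 3, 8 and 24 h and 0 fell: Akap12 at 8 h (1.62-fold) and 24 h (1.54-fold), and Arrb2 at 24 h (1.75-fold). Of all probes, 1.32%, 1.72% and 3.26% were called higher at these times of 1 mM.

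Among 23 transcription factors that act on steroidogenic genes, 1 rose and 0 fell at 3 h of 5 mM, 1 rose and 2 fell at 8 h, and 0 rose and 1 fell at 24 h. Of all probes, 2.02%, 3.06% and 3.85% were called higher at 3, 8 and 24 h of 5 mM. The shares called lower were 1.74%, 2.49% and 1.77%. Nr4a1, an orphan nuclear receptor that LH induces in Leydig cells, rose 3.78-fold at 3 h and 2.09-fold at 8 h (adjusted p = 1.32e-05 and 3.75e-05). At 8 h Gata6 was 2.49-fold lower and the estrogen receptor Esr1 2.48-fold lower, and at 24 h Nr2f1, an orphan receptor also called COUP-TFI, was 2.64-fold lower. At 1 mM Nr4a1 rose 1.84-fold at 3 h, 0 genes were called at 8 h, and Tcf21, named after its value was seen, was at least 1.86-fold higher at 24 h. Of all probes, 1.32%, 1.72% and 3.26% were called higher at 3, 8 and 24 h of 1 mM, and 0.627%, 0.656% and 1.41% lower. Nr5a1, which encodes SF-1, lay near background, above it in 8 of 12 control channels, and was not called in any condition. The median log2 ratios of the steroid pathway, the LH pathway and the factors at 24 h of 5 mM were 0.12, 0.04 and -0.13, against 0.03 for all probes.

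**Figure D4:**
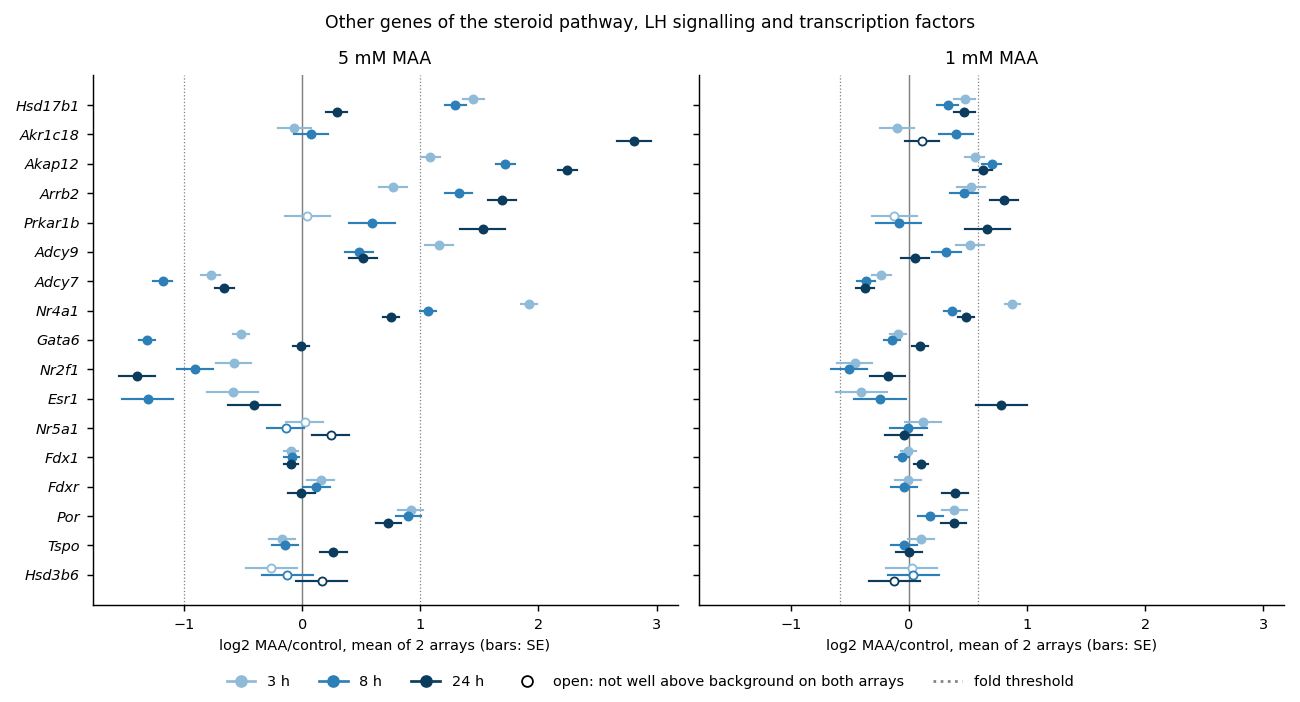
Log2 ratio of MAA-treated to control cells (mean of 2 arrays, bars SE) for 17 other genes of the steroid pathway, LH signalling and transcription factors, at 5 mM (left) and 1 mM (right). Shades of blue give 3, 8 and 24 h, open symbols were not well above background on both arrays, and dotted lines mark the fold thresholds. Akr1c18 reaches 2.81 at 24 h of 5 mM alone, and Akap12 climbs from 1.08 to 2.25.

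Markers of Leydig cells were only partly present. Of 9 Leydig cell genes, Star, Cyp17a1 and Insl3 were well above background in all 12 control channels, as 58.4% of all probes were, and Cyp11a1, Hsd3b1, Hsd3b6 and Lhcgr in none. Markers of other cell types were present in all 12 control channels for 4 of 10 Sertoli cell, 3 of 8 germ cell, 3 of 5 peritubular myoid, 2 of 4 macrophage, 1 of 5 endothelial and 5 of 6 fibroblast genes. At 24 h of 5 mM the median log2 ratio was 0.16 for the Leydig cell list, 0.78 for Sertoli cells, 0.03 for germ cells, 0.57 for myoid cells, -0.10 for macrophages, 0.44 for endothelium and -0.46 for fibroblasts, against 0.03 for all probes. Summed signals with MAA and in control cells were 517 to 524 and 798 to 893 for the Leydig cell list, 17500 to 19630 and 5052 to 5683 for the Sertoli cell list, 477 to 535 and 711 to 839 for germ cells, and 30776 to 34290 and 21635 to 24661 for myoid cells. They were 1148 to 1191 and 1990 to 2048 for macrophages, 421 to 531 and 199 to 262 for endothelium, and 241267 to 305382 and 411319 to 492475 for fibroblasts. These sums follow the brightest probes: Insl3, Clu, Ddx4, Acta2, Cd14, Flt1 and Col1a2 each made up 52.2% or more of the change of their list, and for Leydig and germ cells the sum was lower while the median was above 0. Genes called there were Rhox5, Clu and Dhh (Sertoli), Stra8 (germ), Des (myoid) and Flt1 (endothelium), all higher, Adgre1 higher and Cd14 lower (macrophage), and Thy1 higher and Col1a2 lower (fibroblast), and Cdh5 (endothelium) with both channels below background. Cldn11, Aard, Kit, Ptprc, Adgre1, Pecam1, Kdr, Cdh5 and Thy1 were above background in 0 control channels. The part of these lists in the results was not tested. All RNA came from cultures of the TM3 line, so the lists do not count cells of other types. In pooled RNA, fewer cells with a transcript and less of it per cell cannot be told apart.

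Across the 12 arrays 62.2% to 69.3% of probes were well above background in the MAA channel and 61.5% to 70.5% in the control channel. Log2 ratios of the 2 arrays of a condition correlated across genes at 0.50, 0.63 and 0.64 at 3, 8 and 24 h of 5 mM, but at -0.13, 0.13 and 0.31 at 1 mM, where genes are not independent replicates. Among probes well above background the correlation was 0.69 at 3 h, 0.83 at 8 h and 0.84 at 24 h of 5 mM, and with 1 mM 0.15, 0.36 and 0.60. With 2 arrays a condition, the p-values rest on 1 spread per probe, shared by all 6 conditions. That spread mixes differences between pools of cultures with differences between dye orientations.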

How the data were processed

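Total RNA from TM3 cells was hybridised to 12 two-colour Agilent mouse arrays, 2 per condition with the dyes exchanged. Per the labels, the authors scanned them with Agilent Feature Extraction 9.5.3.1, and the deposited files hold spot intensity values, background-subtracted and dye-normalized by that software, and a table of log10 ratios. Each of its columns had a median of 0 and correlated at 0.91 to 1.00 with the ratio of MAA to control from the scanner values, so it was read as MAA over control, with its centring unknown. The deposited flags for spots well above background and for outliers, kept as other values, were used as given. An array carried 45018 spots, 43379 without the controls. The name column holds accessions for nearly all probes, and symbols came from the RefSeq gene table, which named 22072 of 41174 probes.

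Processed intensities gave the log2 ratio of MAA to control on each array, uncentred, with outlier spots left out. The median log2 ratio of an array ran from -0.13 to 0.15. Ratios were fitted with limma 3.58.1 in R 4.3.3, 1 coefficient per condition, with 6 residual degrees of freedom and Benjamini-Hochberg adjustment over all probes. Signals in text and figures were normalized with Aquantile, and the untreated times had 3 residual degrees of freedom. A gene not well above background on 1 side has a lower bound of its fold, set against the dimmest probe still flagged as well above background, array by array. The number of arrays limits the precision, and the median SE of a log2 ratio was 0.15. On simulated data with 200 probes changed 4-fold among 41174, 94%, 94.5% and 99% were called at 3, 8 and 24 h of 5 mM. Of the unchanged probes, 46, 45 and 45 were called too. The test of 5 mM against 1 mM found 62%, 69.5% and 69.5% of the changed probes. The simulated noise was independent between arrays, with no dye or slide effect. Changes near 2-fold were not simulated, so these shares do not hold for them.

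Lists of the steroid pathway (37 of 40 genes measured), LH signalling (23 of 24), transcription factors (23 of 25) and markers of Leydig, Sertoli, germ, myoid, macrophage, endothelial and fibroblast cells, as well as the 10 genes, were chosen with earlier results of these data known. Named were the 10 genes, up to 8 called genes per pathway list at 5 mM with the largest ratios, the fixed genes Nr5a1, Fdx1, Fdxr, Por, Tspo and Hsd3b6, and the 3 probes most correlated with a gene called in 2 or more conditions. Alternatives were normexp with loess, the deposited log10 table, median centring, kept outliers, error weights, dim probes left out, slide and replicate blocks, subsets of arrays, other thresholds and probes, and leaving out each array in turn.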

Additional observations from a re-analysis of the deposited data

Results flagged for a closer look

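In 3 of 39 groups of 4 control channels, 1 channel stood far from the other 3, where chance sets apart about 1 in 20 groups. The Hsd17b11 probe A_51_P132625 read 142 in control cells on replicate 2 of 1 mM at 3 h, against 17.9 to 21.2 on the other arrays of that time, and the treated channel of the same spot read 134.8, so its ratio was near 0. Hsd17b3 read 17.3 in control cells on replicate 1 of 1 mM at 8 h, against 2.24 to 2.59 elsewhere at that time, and this was the sole array on which it was well above background. Hsd17b3 also read 2.75 on replicate 2 of 1 mM at 3 h, against 2.49 to 2.50, with all 4 values below background.

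By a limma test of the difference itself, the response to 5 mM differed from that to 1 mM for the brighter probe of Hsd17b11 and for Insl3. The differences in log2 ratio were -0.66 at 3 h, -0.86 at 8 h and -0.55 at 24 h for Hsd17b11, and -1.05 at 24 h for Insl3. The second probe of Hsd17b11 did not pass at any time. Between times at 5 mM, the test found differences of -0.64 for Insl3 from 3 to 24 h, of 2.29 for the first probe of Cyp11a1 from 3 to 24 h, and of 2.43 from 8 to 24 h and 2.81 from 3 to 24 h for its second probe. The Cyp11a1 signals at 3 and 8 h were below background, so these differences have no measured starting level. The difference of 2.43 was not past the test without either array at 8 h or without replicate 1 at 24 h (adjusted p up to 0.0858), and with normexp background correction the differences of the second probe were 0.18 from 8 to 24 h (adjusted p = 0.279) and 0.34 from 3 to 24 h. The causes were not tested.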

How the results depend on the processing

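No called result changed direction. Under settings that left out no single array, 107 recomputed counts of genes stayed within 1.5 times the reported count and 46 did not. Of the values of single genes, 445 kept their side of the threshold or moved by less than their spread, 17 moved further, 22 lost a call and 2 gained one. The causes of the changes below were not tested. With normexp and loess 5 mM gave 0 calls at 3 h, 0 at 8 h and 1 at 24 h, and 1 mM gave 0 at 3 h, 0 at 8 h and 0 at 24 h, while the genes differing were 2 for 5 mM versus 1 mM at 8 h, 1 for 8 h versus 3 h and 1 for 24 h versus 8 h. Median centring gave 2 calls at 3 h of 5 mM, and 0 and 1 genes differing between concentrations at 3 and 24 h. The slide as a block gave 2 calls at 3 h of 5 mM, and 0 and 2 genes differing between concentrations at 3 and 8 h and 1 for 8 h versus 3 h. Error weights gave 0 calls at 3 h of 1 mM and 2 genes differing between concentrations at 8 h. With dim probes left out there were 0 calls at 3 h of 5 mM and of 1 mM, 3 genes differing between concentrations at 8 h and 1 for 24 h versus 8 h. Without a fold threshold the calls were 4 at 3 h and 4 at 8 h of 5 mM. At unadjusted p under 0.05 the genes differing between concentrations were 4, 3 and 4 at 3, 8 and 24 h, with 2 for 8 h versus 3 h and 1 for 24 h versus 8 h. Counting any probe gave 2 calls at 24 h of 1 mM and 1 gene for 24 h versus 8 h. Using only the 4 arrays of a time gave 0, 0 and 0 genes differing between concentrations, and only the 6 arrays of 5 mM gave 1 for 24 h versus 3 h. In control cells, each channel as a sample gave 5 genes for 8 h versus 3 h and 2 for 24 h versus 8 h, and the arrays of 5 mM or of 1 mM alone gave 1 and 1 for 8 h versus 3 h.

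The replicate number is also the dye orientation, and the labels do not say whether it pairs cultures. Over 15 pairs of conditions, deviations of same-numbered arrays correlated from 0.07 to 0.51, with 14 over 0.1. Dye orientation and cultures shared by number cannot be told apart here. With the replicate block the genes differing were 2 and 3 between concentrations at 3 and 8 h, 2 for 8 h versus 3 h, 1 for 24 h versus 8 h and 4 for 24 h versus 3 h, and in control cells 1 for 8 h versus 3 h and 1 for 24 h versus 8 h. Among them were Srd5a1, below background throughout, and Shbg and Cyp11a1 in comparisons with 3 h signals below background.

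Leaving out each array in turn gave 1 to 2, 2 to 2 and 1 to 3 calls at 3, 8 and 24 h of 5 mM, and 0 to 1, 1 to 1 and 1 to 2 at 1 mM. Genes differing between concentrations were 0 to 1, 0 to 2 and 0 to 2 at 3, 8 and 24 h. Between times they were 0 to 0 for 8 h versus 3 h, 0 to 0 for 24 h versus 8 h and 0 to 2 for 24 h versus 3 h, and in control cells 1 to 2, 0 to 1 and 2 to 2. Where 1 array was left in a condition, it was taken to vary like the others.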
